A study of Mus musculus with 4 samples.

Results

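The genes described here are 10 genes of glucose breakdown, chosen by their names on the array platform: Hk1, Hk2, Pfkl, Pfkp, Aldoa, Tpi1, Pgk1, Ldha, Ldhb and the lactate transporter Slc16a1. Each gene was read from the probe set that names it alone, and where several did so the brightest over all 4 arrays was taken. That gave values for 9 of the 10 genes, each with 1 such probe set, among 22180 genes named on the platform. The probe set of Aldoa, which encodes the muscle-type aldolase found in most tissues, also names Aldoart1, so no value is given for it. All 9 measured genes passed a filter on low values, under which the highest of the 4 values had to reach 5.475 (log2), the middle of the whole table. The filter left 14061 genes, which are the background for every count below.

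RNA came from LSK cells, the lineage-negative, Sca-1-positive and c-Kit-positive fraction of bone marrow in which blood stem cells and early progenitors lie. The male C57/B6 mice were 4 months old. The groups were AMKO and Ctrl mice treated 8 days earlier with 150 mg/kg 5FU (5-fluorouracil), which kills cycling cells and is used to activate stem cells, and AMKO and Ctrl mice at day 0 (Basal). The labels do not spell out AMKO, so neither the genetic change it stands for nor the cells that carry it could be checked. They also do not say how many animals were pooled. Each group is 1 array, so no difference below has a replicate error.

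Glycolysis splits glucose in the cytosol into pyruvate, with a small yield of ATP. Hexokinases trap glucose as a phosphate, phosphofructokinase commits it, and the lower steps from triose phosphate isomerase onward recover energy. Pyruvate then enters mitochondria or is turned by lactate dehydrogenase into lactate, which leaves through monocarboxylate transporters. Blood stem cells at rest are known for a strong reliance on glycolysis, and their entry into the cell cycle for a greater use of mitochondria.

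Marker genes were read first. Kit was at 11.16 in AMKO and 11.08 in Ctrl after 5FU, against 11.87 in AMKO and 11.84 in Ctrl at Basal, so the defining c-Kit marker was bright on all 4 arrays, and dimmer after 5FU. Ly6a, which encodes Sca-1, has no probe set that names it alone. Cd48, which progenitors carry and resting stem cells largely lack, was at 9.49 in AMKO and 9.96 in Ctrl after 5FU, against 5.15 in AMKO and 4.99 in Ctrl at Basal. That is 20.3-fold higher in AMKO and 31.3-fold higher in Ctrl. Flt3, a marker of multipotent progenitors, differed by 0.52 in AMKO and 1.57 in Ctrl, and Procr, a stem cell marker, by -0.70 and -1.64. Stem and progenitor markers differed between 5FU and Basal arrays in both genotypes, and the part of this shift in the values below was not tested. On the Ctrl 5FU array the 12 mature neutrophil markers lay between 8.39 and 12.29, and all 12 reached 5.475. Of these markers 6 reached it in AMKO after 5FU, against 3 in AMKO and 4 in Ctrl at Basal. The B-lineage median was 8.12 on the Ctrl 5FU array and 5.37, 5.28 and 5.12 on the AMKO 5FU, AMKO Basal and Ctrl Basal arrays. On the Ctrl Basal array 11 of 12 skeletal muscle markers reached 5.475, with a median of 8.59, while 5 did in AMKO and 8 in Ctrl after 5FU and 5 in AMKO at Basal. Every Ctrl difference below spans these neutrophil, B-lineage and muscle shifts, whose part in the Ctrl values was not tested, and the differences of both genotypes span the Cd48, Procr and Kit shift. In such bulk samples fewer cells of a type and less RNA per cell cannot be told apart.

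**Figure D1:**
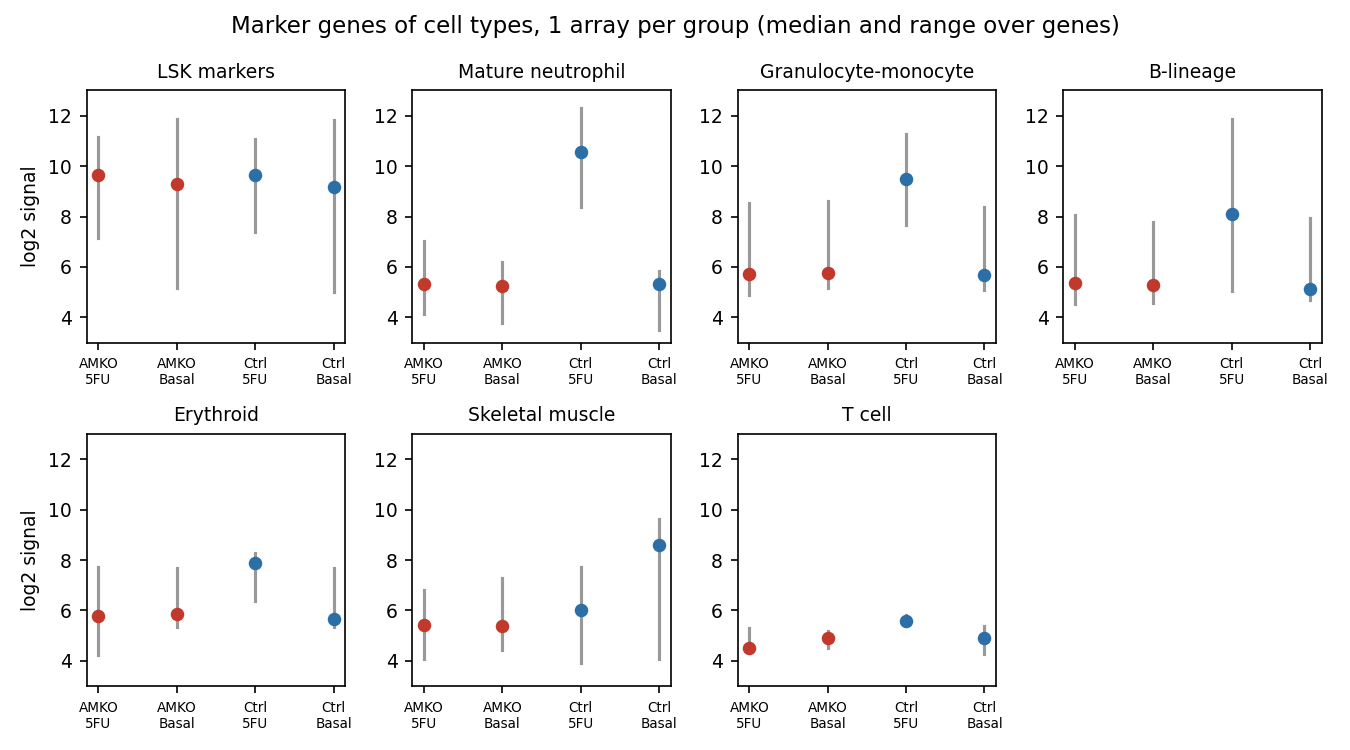
Log2 signal of marker genes of 7 cell types on each array (points are medians over the measured markers of a type, vertical lines run from the lowest to the highest marker, red AMKO, blue Ctrl). Neutrophil, granulocyte-monocyte and B-lineage markers stand high on the Ctrl 5FU array, and muscle markers on the Ctrl Basal array. Of 4 measured erythroid markers, Car1 (8.27) and Slc4a1 (8.05) also stand high on the Ctrl 5FU array. Klf1 was at 6.38 there and 6.23 in AMKO after 5FU, and Epor at 7.69 and 7.71.

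The lactate transporter and the triose enzymes Tpi1 and Pgk1 were higher after 5FU in both genotypes. Pfkl, liver-type phosphofructokinase, was higher by 0.50 in AMKO and by 0.15 in Ctrl. The hexokinase, platelet-type phosphofructokinase and lactate dehydrogenase genes differed little or were lower. In AMKO cells 2 of 9 members, Slc16a1 and Pgk1, were at least 2-fold higher, where 4.69% of all genes were, and 0 were at least 2-fold lower, where 3.55% were. In Ctrl cells 0 of 9 were at least 2-fold higher or lower, against 5.02% and 4.46% of all genes. At 1.5-fold, 3 members were higher and 0 lower in AMKO (15.4% and 10.5% of all genes), and 2 were higher and 1 lower in Ctrl (11.9% of all genes each way). The median 5FU difference of the 9 members was 0.31 in AMKO and 0.15 in Ctrl on the log2 scale, against 0.03 and 0.01 over all genes. With arrays centred on their medians, the value over all genes in AMKO was 0.14 and that of the members 0.42. After quantile normalization the members' medians were 0.17 in AMKO and 0.11 in Ctrl, against 0.01 and 0.00 over all genes. Under a stricter filter at 7.32, which all 9 members passed, the medians over all genes were 0.14 in AMKO and 0.07 in Ctrl.

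With 1 array a group, the test used here was an additive limma fit over all 14061 genes, which averages the 5FU difference over the genotypes and takes their disagreement as error. It called 0 members and 0% of all genes at an adjusted p of 0.05. An unadjusted limma p under 0.05 was found for 3 of 9 members and 3907 of 14061 genes, so the members lay near the background. No word below such as higher or lower therefore stands for a passed test.

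**Figure D2:**
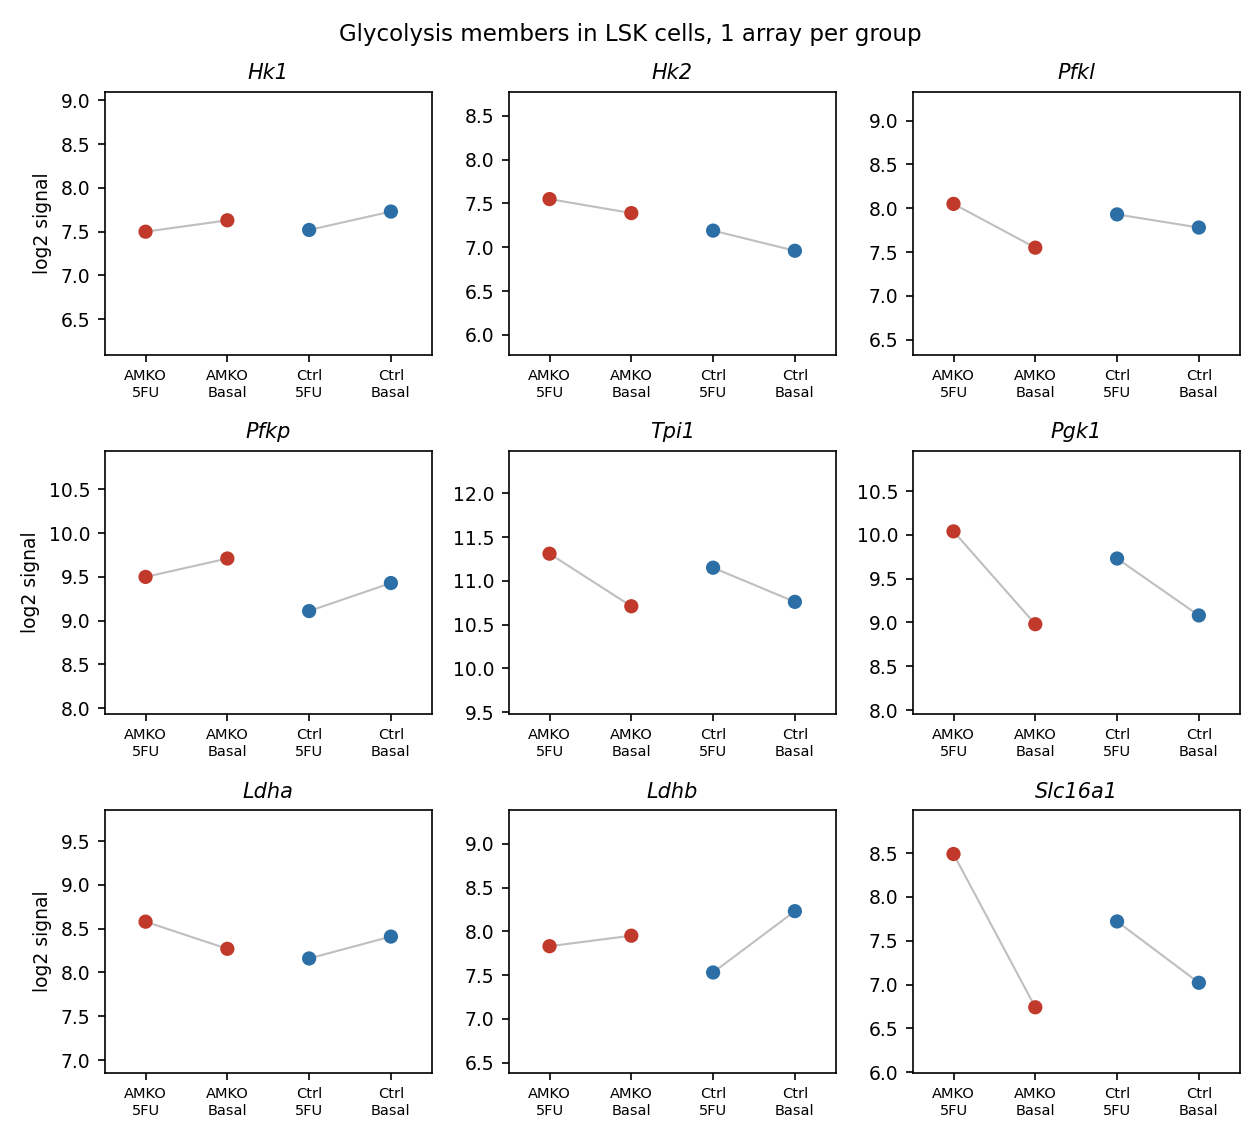
Log2 signal of the 9 measured members on the 4 arrays, 1 panel per gene, with red for AMKO, blue for Ctrl and a grey line joining the arrays of a genotype. All panels span the same number of log2 units, and 5FU lies clearly above Basal in both genotypes for Slc16a1, Pgk1 and Tpi1.

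Slc16a1 encodes MCT1, the proton-coupled transporter that moves lactate and pyruvate across the plasma membrane. Its log2 signal was 8.49 in AMKO and 7.72 in Ctrl after 5FU, against 6.74 in AMKO and 7.02 in Ctrl at Basal. Both 5FU arrays lay above both Basal arrays. The differences were 1.75 in AMKO, or 3.36-fold, and 0.70 in Ctrl, or 1.62-fold. The averaged effect was 1.23 (SE 0.31, limma adjusted p = 0.119). Set against the Basal array of the other genotype, the differences were 1.47 in AMKO and 0.98 in Ctrl.

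Pgk1 encodes phosphoglycerate kinase, the first enzyme of the pathway to make ATP. It stood at 10.04 in AMKO and 9.73 in Ctrl after 5FU, against 8.98 in AMKO and 9.08 in Ctrl at Basal. The differences of 1.06 in AMKO, or 2.08-fold, and 0.65 in Ctrl, or 1.57-fold, averaged 0.85 (SE 0.16, limma adjusted p = 0.0856). The AMKO value was 0.88 after quantile normalization and 0.96 against the Ctrl Basal array, both short of 2-fold. Pgk1 was the only member to pass limma's threshold under any setting tried, with an adjusted p of 0.0387 under robust estimation and 0.0372 under a stricter filter. Those settings called 9.35% and 15.7% of all genes tested, so 1 of 9 members is near the background.

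Tpi1 encodes triose phosphate isomerase, which passes both products of the split sugar to the lower steps. Its signal was 11.31 in AMKO and 11.15 in Ctrl after 5FU, against 10.71 in AMKO and 10.76 in Ctrl at Basal. The Basal arrays differed by 0.05 and the 5FU differences were 0.60 in AMKO and 0.39 in Ctrl. Their average was 0.49 (SE 0.11, limma adjusted p = 0.102).

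Hk1 and Hk2 encode the broadly expressed and the inducible hexokinase. Hk1 was at 7.50 in AMKO and 7.52 in Ctrl after 5FU, against 7.63 in AMKO and 7.73 in Ctrl at Basal. Hk2 was at 7.55 in AMKO and 7.19 in Ctrl after 5FU, against 7.39 in AMKO and 6.96 in Ctrl at Basal. The 5FU differences were -0.13 and -0.21 for Hk1 and 0.16 and 0.23 for Hk2 in AMKO and Ctrl. For Hk2 the genotypes stood further apart than the times, and its Ctrl difference became -0.20 against the AMKO Basal array. The averaged effects were -0.17 for Hk1 (SE 0.14, limma adjusted p = 0.478) and 0.20 for Hk2 (SE 0.14, limma adjusted p = 0.432).

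Pfkl and Pfkp encode the liver-type and platelet-type subunits of phosphofructokinase, which mix in its tetramers. Pfkl had 8.05 in AMKO and 7.93 in Ctrl after 5FU, against 7.55 in AMKO and 7.78 in Ctrl at Basal. Pfkp had 9.50 in AMKO and 9.11 in Ctrl after 5FU, against 9.71 in AMKO and 9.43 in Ctrl at Basal. Both Pfkl values after 5FU were thus above both Basal values, with differences of 0.50 in AMKO and 0.15 in Ctrl. Pfkp differed by -0.21 in AMKO and -0.32 in Ctrl, though its AMKO difference was 0.07 against the Ctrl Basal array. Neither passed the fit, with limma adjusted p of 0.287 for Pfkl and 0.249 for Pfkp.

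Ldha and Ldhb encode the subunits of lactate dehydrogenase. The A subunit is linked to lactate formation in muscle and growing cells, and the B subunit to lactate use in heart. Ldha was at 8.58 in AMKO and 8.16 in Ctrl after 5FU, against 8.27 in AMKO and 8.41 in Ctrl at Basal. Its 5FU difference was 0.31 in AMKO and -0.25 in Ctrl, the only opposite signs among the members. Ldhb was at 7.83 in AMKO and 7.53 in Ctrl after 5FU, against 7.95 in AMKO and 8.23 in Ctrl at Basal, with both 5FU arrays below both Basal arrays. The Ldhb difference was -0.12 in AMKO and -0.70 in Ctrl, or 1.62-fold lower, and was -0.42 in Ctrl against the AMKO Basal array. Limma gave adjusted p of 0.937 for Ldha and 0.284 for Ldhb. The 5FU differences of the lactate transporter and the dehydrogenases thus did not share a direction. Each was larger, or less negative, in AMKO than in Ctrl, as for most members.

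The sequences before the transcription starts of 5 members are shown because hypoxia-inducible factors, long tied to glycolysis in stem cells, bind a short core that can be read in them. The core was searched as ACGTG or GCGTG on both strands, and the E-box CACGTG of Myc-type factors, which contains ACGTG on each strand, was searched as well. Windows are the 250 bases before a RefSeq start on GRCm38.p6, written 5′ to 3′ on the gene's strand, with core matches in capitals. They lie at chr3:104638414-104638663 (plus strand) for Slc16a1, chrX:106186850-106187099 (plus) for Pgk1 and chr6:124814159-124814408 (minus) for Tpi1. Those of Ldha and Ldhb lie at chr7:46845554-46845803 (plus, the first of 2 starts in the table) and chr6:142507958-142508207 (minus).
Slc16a1: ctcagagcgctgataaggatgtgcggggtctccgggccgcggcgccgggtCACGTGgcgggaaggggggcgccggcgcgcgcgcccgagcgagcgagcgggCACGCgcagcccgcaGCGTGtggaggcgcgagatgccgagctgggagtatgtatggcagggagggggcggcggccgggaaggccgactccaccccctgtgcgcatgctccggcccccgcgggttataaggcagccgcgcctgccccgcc
Pgk1: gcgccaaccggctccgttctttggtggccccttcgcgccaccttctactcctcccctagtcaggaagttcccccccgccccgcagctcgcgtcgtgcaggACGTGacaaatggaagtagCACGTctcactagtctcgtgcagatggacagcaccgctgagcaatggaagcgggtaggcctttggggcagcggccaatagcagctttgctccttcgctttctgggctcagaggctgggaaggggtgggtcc
Tpi1: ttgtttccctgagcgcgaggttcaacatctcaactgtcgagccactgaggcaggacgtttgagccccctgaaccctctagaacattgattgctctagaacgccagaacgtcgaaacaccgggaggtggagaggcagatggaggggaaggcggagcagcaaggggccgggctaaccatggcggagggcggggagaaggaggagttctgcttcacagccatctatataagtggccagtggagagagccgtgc
Ldha: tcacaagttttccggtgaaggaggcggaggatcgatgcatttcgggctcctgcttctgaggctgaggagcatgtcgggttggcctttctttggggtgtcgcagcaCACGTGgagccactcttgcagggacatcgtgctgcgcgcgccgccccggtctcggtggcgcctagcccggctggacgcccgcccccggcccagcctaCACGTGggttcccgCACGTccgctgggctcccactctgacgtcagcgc
Ldhb: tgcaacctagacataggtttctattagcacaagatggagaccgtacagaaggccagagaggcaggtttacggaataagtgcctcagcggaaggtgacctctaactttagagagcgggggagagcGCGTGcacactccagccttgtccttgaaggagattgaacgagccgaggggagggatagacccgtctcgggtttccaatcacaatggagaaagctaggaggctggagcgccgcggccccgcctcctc

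The Slc16a1 window held 3 capital stretches, 1 of them an E-box, and the Pgk1 window held 2. The Tpi1 window held 0. The Ldha window held 3, of which 2 were E-boxes, and Ldhb held 1. All 10 members matched the promoter table, with 14 windows in all, a pair of which overlap at Aldoa, and 11 of them, or 78.6%, held a core match while 2 held an E-box. Over all 32851 windows of this length, 38.6% held a core match and 6.02% an E-box. The GC content of the members' windows ran from 49.6% (1 of 2 for Hk1) to 76.4% (Slc16a1), with a median of 62.8% against 52.4% over all windows, and its part in these shares was not tested. A match is a run of letters and not a measured site.

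AMKO and Ctrl cells were set side by side at each time. At Basal the member differences, AMKO minus Ctrl, ran from -0.28 for Ldhb and Slc16a1 to 0.43 for Hk2, with a median of -0.10. None reached 2-fold, where 0.925% of all genes did. After 5FU they ran from -0.02 for Hk1 to 0.77 for Slc16a1, with a median of 0.31 against 0.06 over all genes. None reached 2-fold there either, where 3.37% of all genes did. Ldha (0.42), Pfkp (0.39), Hk2 (0.36), Pgk1 (0.31) and Ldhb (0.30) followed Slc16a1.

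The 5FU difference was larger, or less negative, in AMKO than in Ctrl for 8 of 9 members, as it was for 55.2% of all genes. The gap was 1.05 for Slc16a1, 0.58 for Ldhb, 0.56 for Ldha, 0.41 for Pgk1, 0.35 for Pfkl and 0.21 for Tpi1. It was 0.11 for Pfkp, 0.08 for Hk1 and -0.07 for Hk2. Slc16a1 alone reached 2-fold, where 5.5% of all genes did in either direction, and it fell short of that after quantile normalization. The median gap was 0.35, against 0.05 over all genes, and after median centring it was 0.42 against 0.12. Against the Basal array of the other genotype, AMKO no longer had the higher difference for Pfkl (0.27 in AMKO and 0.38 in Ctrl) and Hk1 (-0.23 and -0.11). For Hk2 the order turned the other way (0.59 and -0.20). It held for the other members, with Slc16a1 at 1.47 and 0.98 and Ldhb at -0.40 and -0.42. These comparisons reuse the same 4 arrays, have no test of the gap, and rest on the 2 Ctrl arrays with high markers of other cells.

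**Figure D3:**
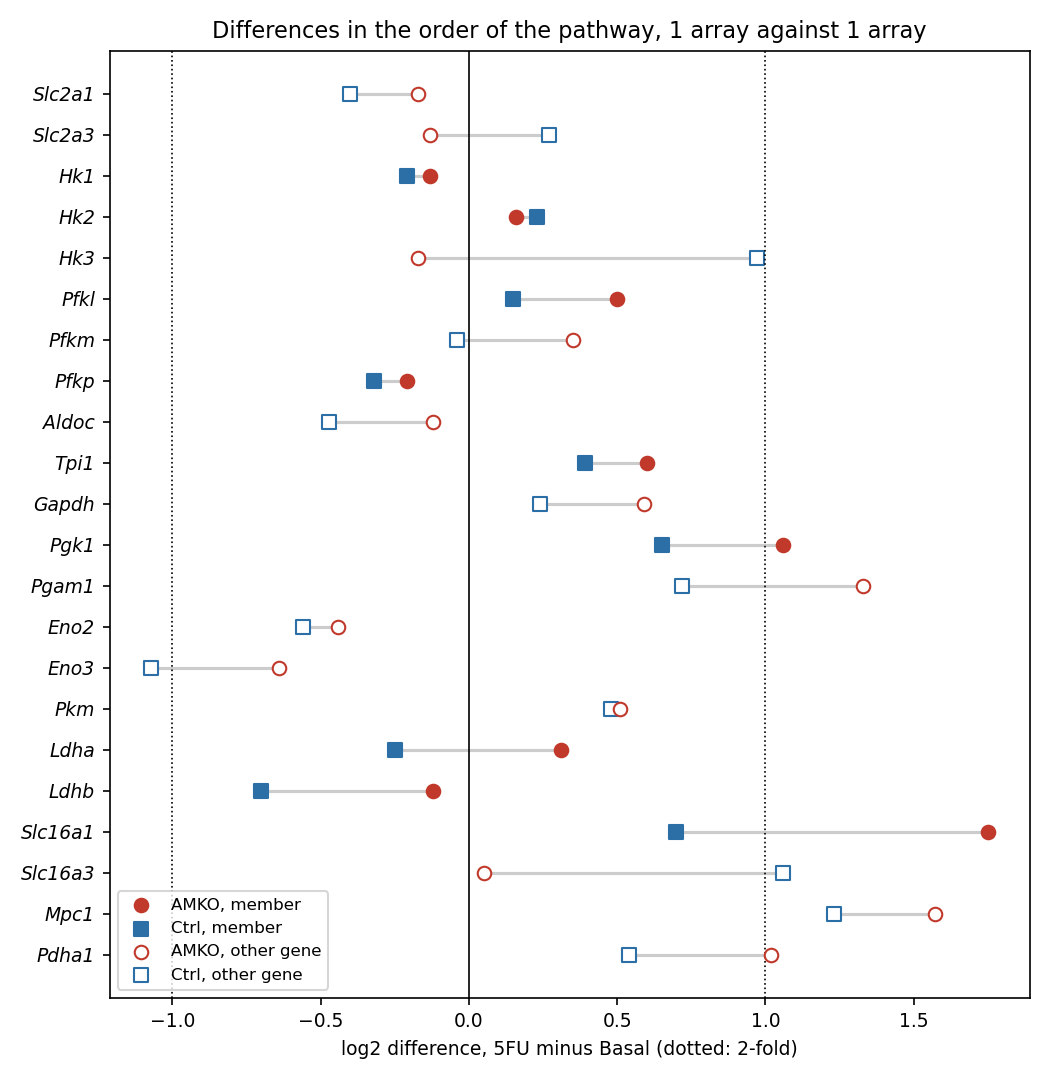
Log2 difference between the 5FU and Basal array of a genotype for genes in pathway order, from glucose uptake at the top to pyruvate entry into mitochondria at the bottom (red circles AMKO, blue squares Ctrl, filled for members, open for other genes, dotted lines at 2-fold). Of the genes drawn, those from Slc2a1 to Aldoc lie between -0.47 and 0.50, apart from Hk3 in Ctrl (0.97). Those from Tpi1 to Pgam1 lie above 0, Eno2 and Eno3 lie below 0, and Slc16a1 and Mpc1 in AMKO lie highest. The glycolysis genes Pgam2 (0.08 in AMKO and -0.46 in Ctrl), Pklr (-0.32 and 0.66) and Bpgm (0.43 and 0.47) also passed the filter but are not drawn.

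The other glycolysis enzymes filled in the steps between members. Of 18 listed, 14 were measured and 11 passed the filter, with medians of 0.08 in AMKO and 0.24 in Ctrl. In AMKO 1 of 11 was at least 2-fold higher and 0 lower (4.69% and 3.55% of all genes). In Ctrl 0 were higher and 1 lower (5.02% and 4.46% of all genes). Pgam1, phosphoglycerate mutase, had differences of 1.33 in AMKO and 0.72 in Ctrl (limma adjusted p = 0.0902), but a second probe set gave 0.93 and -0.09. Against the Basal array of the other genotype Pgam1 differed by 0.67 in AMKO and 1.38 in Ctrl, so neither its 2-fold size in AMKO nor the order of the genotypes held. Pkm, the pyruvate kinase of most tissues, gave 0.51 and 0.48 (limma adjusted p = 0.0978). Gapdh, the dehydrogenase before Pgk1, gave 0.59 and 0.24, and its further probe sets 0.38 and 0.31 in AMKO and 0.20 and 0.28 in Ctrl. Gpi1 and Eno1 had no probe set of their own. Eno3, the muscle enolase, differed by -0.64 in AMKO and -1.07 in Ctrl, and Eno2, the neuronal one, by -0.44 and -0.56. Eno3 was at 8.92 on the Ctrl Basal array with its high muscle markers, and at 8.23 in AMKO at Basal. Hk3, a hexokinase of myeloid cells, was at 8.09 on the Ctrl 5FU array, where neutrophil markers were high, and between 7.04 and 7.21 on the others.

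Genes that feed and steer the pathway had medians near or below 0. Of 7 glucose transporters 6 passed the filter, with medians of -0.13 in AMKO and -0.08 in Ctrl. Slc2a1 (GLUT1) differed by -0.17 in AMKO and -0.40 in Ctrl (0.35 and 0.40 at a dimmer probe set), and Slc2a3 (GLUT3) by -0.13 and 0.27. Slc2a6 was at 6.60 on the Ctrl 5FU array and between 5.52 and 5.76 on the others. Slc2a9, a urate transporter of this family, differed by 0.88 and -0.22, and Slc2a8 by -0.53 and -0.18. Fructose-2,6-bisphosphate, the main activator of phosphofructokinase, is made and broken down by the Pfkfb enzymes. Pfkfb3 was at 6.78 in AMKO and 7.32 in Ctrl after 5FU, against 8.02 in AMKO and 7.48 in Ctrl at Basal, a difference of -1.24 in AMKO and -0.16 in Ctrl (limma adjusted p = 0.254). Pfkfb2 differed by -0.61 and -0.40, Pfkfb4 by -0.42 and 0.21, and Tigar, which breaks the activator down, by 0.34 and 0.44. For all 4 measured genes of this list the 5FU difference was lower in AMKO than in Ctrl, as it was for 43.7% of all genes, though the gap was only -0.10 for Tigar and the Ctrl arrays carry the marker shifts.

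The 6 passing genes of lactate export and interconversion outside the members had medians of 0.21 in AMKO and 0.05 in Ctrl. Emb, embigin, an accessory protein of monocarboxylate transporters, was at 9.98 in AMKO and 10.38 in Ctrl after 5FU, against 8.65 in AMKO and 8.69 in Ctrl at Basal. Its differences of 1.33 and 1.69 averaged 1.51 (SE 0.15, limma adjusted p = 0.0697), while a dimmer second probe set gave -0.03 and -0.21. Bsg, basigin, the main accessory protein of MCT1, differed by 0.21 and -0.08. Slc16a3, the exporter MCT4, differed by 0.05 in AMKO and 1.06 in Ctrl, where the neutrophil markers were high. Ldhd, which oxidises D-lactate in mitochondria, was 2.99-fold lower in AMKO and 1.66-fold lower in Ctrl (limma adjusted p = 0.105).

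Genes of pyruvate entry into mitochondria had higher 5FU medians than the members, at 0.50 in AMKO and 0.54 in Ctrl over 13 genes. In AMKO 4 were at least 2-fold higher and 0 lower, where 4.69% and 3.55% of all genes were. In Ctrl 2 were higher and 1 lower, where 5.02% and 4.46% of all genes were. Mpc1, a subunit of the mitochondrial pyruvate carrier, was at 9.22 in AMKO and 8.99 in Ctrl after 5FU, against 7.65 in AMKO and 7.76 in Ctrl at Basal. Its differences were 1.57 and 1.23 (limma adjusted p = 0.0708), with 0.19 and 0.20 at a second probe set. Dld, the shared dehydrogenase subunit of pyruvate dehydrogenase, differed by 1.17 and 1.04 (limma adjusted p = 0.0732). The other complex subunits Pdha1, Pdhb, Dlat and Pdhx lay between 0.50 and 1.48 in AMKO and between 0.54 and 0.84 in Ctrl. Of the kinases that switch the complex off, Pdk2 differed by -0.88 and -0.65 and Pdk4 by -0.56 and -1.21, while Pdk3 differed by 0.63 and 0.56 and Pdk1 by 0.26 and -0.13. Pdk4 is a muscle-rich kinase and stood at 6.82 on the Ctrl Basal array, against 5.84 in AMKO at Basal.

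The citric acid cycle had medians of 0.57 in AMKO and 0.40 in Ctrl over 17 genes, with 16 of 17 higher in each genotype, where 52.3% of all genes were higher in AMKO and 50.1% in Ctrl. At least 2-fold higher were 2 in AMKO and 1 in Ctrl, where 4.69% and 5.02% of all genes were. Idh3a, the catalytic subunit of isocitrate dehydrogenase, differed by 1.53 in AMKO and 1.30 in Ctrl, while its partner subunits differed by -0.18 and -0.05 (Idh3b) and 0.31 and 0.03 (Idh3g). Mdh2, malate dehydrogenase, differed by 1.20 and 0.91. The pentose phosphate pathway, which draws on the same glucose phosphate, had medians of 0.26 in AMKO and 0.72 in Ctrl over 6 genes. Taldo1, transaldolase, was 2.39-fold higher in AMKO and 2.79-fold higher in Ctrl (limma adjusted p = 0.0697). Rpe, a pentose phosphate epimerase, differed by 0.26 and 1.04, Pgls by -0.22 and 0.50 (-0.30 and -0.74 at a second probe set), and H6pd by 0.08 and -0.08.

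Glycogen and gluconeogenesis genes had medians of 0.20 in AMKO and 0.23 in Ctrl over 11 genes. Fbp1, which reverses the phosphofructokinase step, was at 6.77 in AMKO and 6.44 in Ctrl after 5FU, against 5.39 in AMKO and 5.59 in Ctrl at Basal. Ugp2, which makes the sugar donor for glycogen, differed by 0.80 and 0.33. Gbe1, the glycogen branching enzyme, differed by -0.18 in each genotype and was lower by 0.80 in AMKO than in Ctrl at both times. Pygm, the muscle form of glycogen phosphorylase, had the lowest values of the list, at -2.48 in AMKO and -3.74 in Ctrl. Of 12 skeletal muscle markers 5 reached 5.475 on each AMKO array, against 11 on the Ctrl Basal array and 8 on the Ctrl 5FU array. The part of muscle RNA in the Pygm value of either genotype was not tested.

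**Figure D4:**
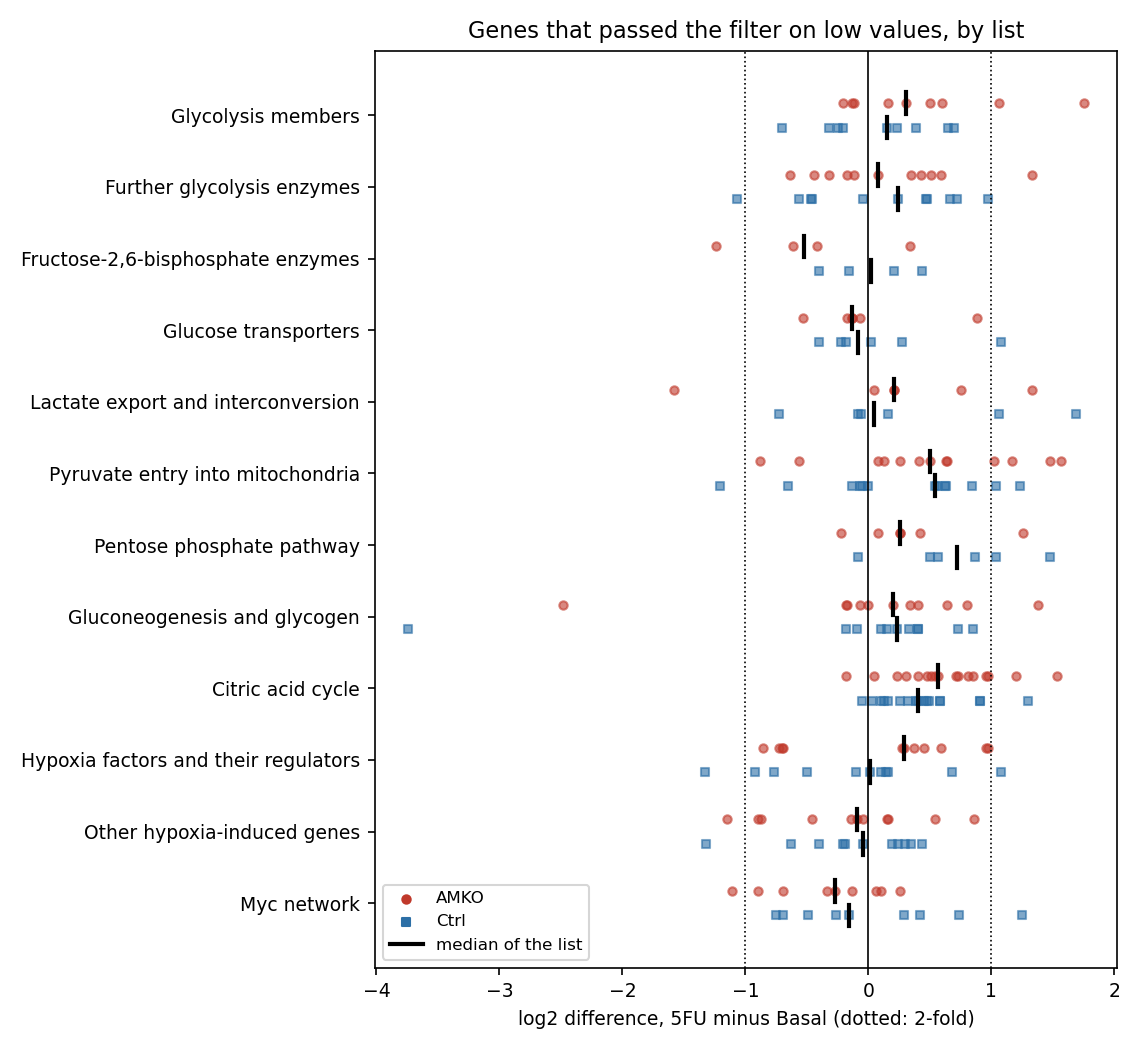
Log2 difference between the 5FU and Basal arrays for every gene of each list that passed the filter (red circles AMKO, blue squares Ctrl, black bars the list medians, dotted lines at 2-fold). The members' medians of 0.31 and 0.15 lie below those of pyruvate entry and the citric acid cycle, and the fructose-2,6-bisphosphate list has the lowest AMKO median.

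Regulators of glycolysis were read as lists as well. The 11 genes of hypoxia factors and their regulators had medians of 0.29 in AMKO and 0.01 in Ctrl. Hif1a differed by 0.59 and 0.16, with -0.68 and -0.41 at a dimmer probe set, and Epas1, which encodes HIF-2 alpha, by -0.73 and -0.92. Hif3a differed by -0.86 and -1.33. Egln3, an oxygen-sensing hydroxylase that hypoxia induces, differed by 0.96 and 1.08 (limma adjusted p = 0.0732), and Hif1an, a hydroxylase that dampens HIF activity, by 0.97 and 0.68. Other hypoxia-induced genes had medians of -0.09 in AMKO and -0.04 in Ctrl over 11 genes, with Ndrg1 at -1.15 and -1.32 (0.04 and -0.65 at a second probe set), Ddit4 at -0.90 and -0.63, Higd1a at 0.86 and 0.35 and Plin2 at 0.54 and 0.44. The Myc network had medians of -0.27 and -0.16 over 9 genes, and Myc itself differed by -0.34 and -0.16. Mlxip, a glucose-sensing factor, differed by -1.11 and -0.75, its partner Mlx by -0.13 and 0.74, and Mxd4 by -0.90 and -0.49. Mxd1, a Myc antagonist of maturing myeloid cells, was at 9.28 on the Ctrl 5FU array and between 7.90 and 8.03 on the others. Over the 11 lists limma's adjusted p called 0 genes, and genes lower after 5FU had values like that of Egln3. The limma adjusted p was 0.0844 for Hif3a, 0.0877 for Epas1, 0.0697 for Ndrg1 and 0.0774 for Mlxip.

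The genes whose 4 values lay closest to the members' median profile, by Euclidean distance after subtracting each gene's own mean, were Krit1 (0.014), Creb5 (0.025), Fgfr4 (0.026), Hmx1 (0.028) and Xpnpep3 (0.029). That profile runs only from -0.09 in AMKO at Basal to 0.22 in AMKO after 5FU, and 2055 genes lay within a distance of 0.25, so likeness over 4 arrays says little here.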

How the data were processed

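Expression was measured on Affymetrix arrays, 1 per group. The authors' deposited table holds 1 value per probe set and array, read as log2 because the values run from 1.99 to 13.43. The sources used here do not give the log base, background correction or normalization. The values were used without further scaling. Of 34472 probe sets, 23521 name 1 gene, 1814 several and 9137 none. Current symbols came from RefSeq's GRCm38.p6 gene table by Entrez number, and probe sets of several genes were not used.

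Differences of 1 array and 1 array have no test. The averaged 5FU effect was fitted with limma 3.58.1 in R 4.3.3 (genotype and treatment as additive terms, eBayes with an intensity trend, two-sided, Benjamini-Hochberg over 14061 genes), which leaves 1 residual degree of freedom and a prior of 2.62. Precision is limited by the number of arrays.

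The members and lists were chosen with earlier results of these data known. Named genes are the members, 9 fixed pathway genes of which 7 were measured, and in each list up to 2 of the highest and 2 of the lowest by the mean of both 5FU differences. Hif1a, Myc, Hk3, Pfkm, Aldoc, Pgam2, Pklr, Bpgm, Pdk1, Pdk3, Pdha1, Pdhb, Dlat and Pdhx were named in addition, after their values were seen. Alternatives were quantile normalization, median centring, no filter, a filter at 7.32 (75th percentile), averaging the probe sets of a gene, sizes of 1.5-fold and 3-fold, other Basal arrays, robust or trend-free limma, and each array left out. With no replicates named in the labels, p-values measure only the spread among these arrays.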

Additional observations from a re-analysis of the deposited data

Results flagged for a closer look

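Some named genes had 5FU differences of opposite sign in the genotypes, which is what marked them for a second look. With 1 array in each group the gap between the differences, AMKO minus Ctrl, was not tested. Ldha was the only member, with a gap of 0.56 from 0.31 in AMKO and -0.25 in Ctrl. The larger gaps outside the members were -1.15 for Slc2a6, 1.10 for Slc2a9, -0.87 for Mlx, -0.72 for Pgls and -0.63 for Pfkfb4. Slc2a3 had -0.40, Bsg 0.29 and H6pd 0.16. The Slc2a6 and Mlx gaps come with values on the Ctrl 5FU array above the other 3. On that array neutrophil and B-lineage markers and the erythroid genes Car1 and Slc4a1 were also high. Slc2a9 was lowest in AMKO at Basal, at 5.42, against 6.29 in Ctrl at Basal. Groups of 1 array leave nothing to test for outlying arrays.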

How the results depend on the processing

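Results were recomputed under each alternative, and a median counted as moved when it shifted by more than 0.17, the median residual SD of the members in the additive fit. The count of 2 members at least 2-fold higher in AMKO was 1 after quantile normalization, 1 against the Ctrl Basal array and 1 at 3-fold, with Slc16a1 the member kept in each. The Ctrl counts of 0 became 2 higher and 1 lower at 1.5-fold. The Ctrl median of 0.15 became -0.11 against the AMKO Basal array. For AMKO against Ctrl after 5FU, 1 member (Slc16a1, 0.77) passed 1.5-fold. The share of all genes at that size is not given here, so this count has no background beside it. For the gap between the 5FU differences, the count of 1 became 0 after quantile normalization and 0 at 3-fold. The additive limma fit called 0 genes, and 429 higher and 497 lower after quantile normalization, 98 and 59 after median centring, 841 and 452 with the 75th percentile filter and 744 and 571 with robust estimation. Members called were 1 (Pgk1) with the last pair of settings and 0 with the others. Leaving out 1 array and fitting treatment alone, with the lone array assumed to vary like the pair, gave 0 to 285 higher and 0 to 176 lower genes, with calls only without the AMKO 5FU array, and 0 members. The averaged effect of Ldha was 0.03, and -0.08 after quantile normalization, and between -0.18 (without the AMKO 5FU array) and 0.24 with 1 array left out, including -0.04 without the AMKO Basal array. That of Hk2 was 0.20, and between -0.02 (without the Ctrl Basal array) and 0.41 with 1 array left out. The causes were not tested. No paired analysis was possible because each group is 1 array, so arrays were linked only by the genotype term already in the fit. Precision could not be set from signal over background, which is not given in the sources used here.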
